A study of Mus musculus with 12 samples.

Results

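Chemokines and their receptors made up 45 of the 547 genes on a mouse NanoString panel, which counts RNA molecules directly with barcoded probes. The 36 genes described here are among the 37 panel symbols starting with Ccl, Cxcl, Ccr, Cxcr, Cx3c, Xcl or Xcr other than Ccl2, Ccr2, Ccl5, Ccl6, Ccl9, Cxcl9, Cxcl10 and Cxcl13. They comprise 19 ligands and 17 receptors, and were chosen by symbol. RNA came from 12 male mice of the C57BL6-NJ background, and that the tissue is liver is stated in the series title only. The mice were wild type or carried a constitutive knockout of SphK2, the gene of sphingosine kinase 2, an enzyme that makes sphingosine 1-phosphate. Mice of both genotypes were fed for 16 weeks on a control diet and plain drinking water or on a Western diet and sugar water, used to model early steatohepatitis. The 4 groups held 3 mice each, 1 library a mouse. Labelled ages were 231, 231 and 232 days in the wild-type control-diet mice, 259, 253 and 250 days in the knockout control-diet mice, 226, 226 and 232 days in the wild-type Western-diet mice and 221, 217 and 252 days in the knockout Western-diet mice. A separate diet duration label differs in all 12 mice, from 16 to 27 weeks, and was not used. The protocol's start age and feeding time allow at most 238 days, and 4 knockouts are labelled older, at 250 to 259 days, so the ages are in doubt. The knockout is of the whole animal, so the affected cell type cannot be told from these samples. No probe for Sphk2 was among the rows used here, and the genotype was therefore not checked in the RNA.

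Chemokines are small secreted proteins that form gradients along which leukocytes migrate. They are grouped by the spacing of their first cysteines into CC, CXC, CX3C and XC families, and they act through receptors with 7 membrane-spanning helices that couple to G proteins. Some are produced at rest and guide the homing of lymphocytes or the retention of precursor cells, and others are induced in inflamed tissue and recruit monocytes, neutrophils or T cells. In the liver, resident macrophages, endothelial cells, stellate cells and hepatocytes are all known sources.

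Of the 36 genes, 22 reached a mean of 20 normalized counts over the 12 libraries and were tested, 13 of them ligands and 9 receptors. That is 61.1% of these genes, against 82.8% of the panel. The median of their mean levels was 23.5 normalized counts, against 72.3 for all panel genes, and 30 of the 36 had a mean under 50. Ccl22 lay just inside the minimum at a mean of 22.2 normalized counts and Cx3cl1 just outside at 19.4. Means of Cxcl12, Cxcl1 and Ccl25 were above 100 normalized counts, at 5817, 233 and 116. Levels of different genes come from different probes, so their order says nothing exact about the amounts of RNA. No negative-control probes were among the rows used here, and whether the low genes lay above background was not tested.

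**Figure D1:**
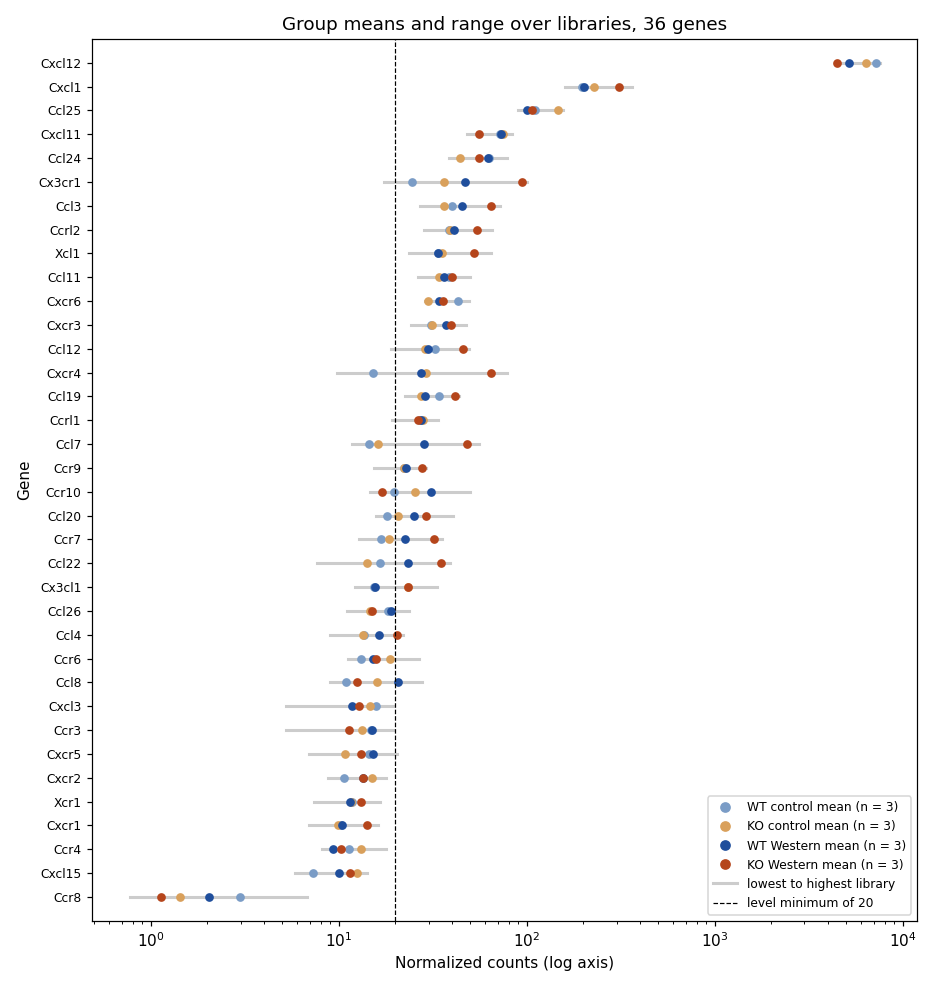
Level of each of the 36 genes in normalized counts on a log axis. Points are group means of 3 mice, grey lines run from the lowest to the highest of 12 libraries, and the dashed line marks the minimum of 20 normalized counts, which 22 genes reached.

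A pair of libraries stood apart from their groups over all tested genes. On the first principal component, which held 58.9% of the variance, wild-type Western-diet replicate 2 scored -5.59, among the control-diet libraries at -6.65 to -3.76. Knockout control-diet replicate 2 had the lowest score on the second component, -9.00. Over the 22 tested genes alone, wild-type Western-diet replicate 2 scored -1.52 and the other libraries of its group 0.99 and 0.52, while the knockout Western-diet libraries scored between 2.15 and 2.85. Calls that were lost or gained without either library or both are given below.

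In 12 of the 22 tested genes at least 1 of the 4 pairwise comparisons passed limma's moderated test, at an adjusted p-value under 0.05 over all 453 tested panel genes. These were 9 ligands and 3 receptors, in 16 pairs of gene and comparison. The comparison with the most calls set Western-diet against control-diet knockouts. It also had the most calls over all 453 tested genes, of which 45.3% passed. There the receptors Cx3cr1, Cxcr4 and Ccr7 and the ligands Ccl7, Ccl12, Ccl3, Ccl22 and Ccl19 were higher. The ligands Cxcl12, Ccl25 and Cxcl11 were lower. On the Western diet, Cx3cr1, Cxcr4 and Cxcl1 were higher and Cxcl12 was lower in knockout than in wild-type mice. In wild-type mice Cxcl12 alone passed between the diets, and on the control diet no gene of the set passed between the genotypes. Of all tested genes, 35.5% passed between genotypes on the Western diet and 2.87% on the control diet. Between diets in wild-type mice 8.61% did.

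**Figure D2:**
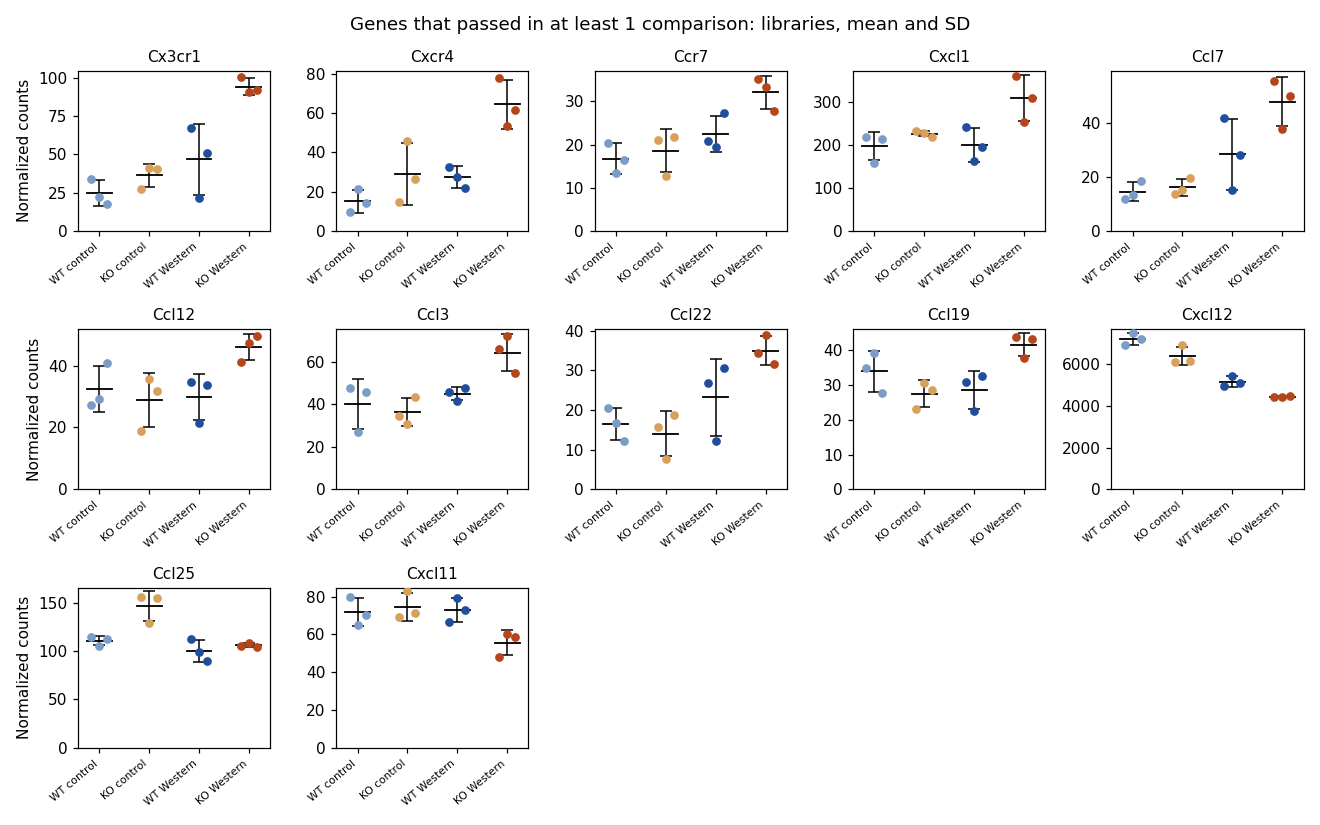
Normalized counts of the 12 genes that passed in at least 1 comparison, by group. Each point is 1 library, bars mark the group mean and SD of 3 mice, and every axis starts at 0. Cx3cr1, Cxcr4 and Ccl3 have their 3 highest values in the knockout Western-diet mice, and Cxcl12 has its 3 lowest there.

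The receptors are described first. Cx3cr1 is the receptor for the membrane-anchored ligand Cx3cl1 and is typical of patrolling monocytes and some tissue macrophages. Counts after normalization were 34.1, 22.4 and 17.4 in the wild-type control-diet mice, 27.3, 40.9 and 40.5 in the knockout control-diet mice, 67.6, 21.4 and 51.2 in the wild-type Western-diet mice and 101, 90.6 and 91.9 in the knockout Western-diet mice. The knockout Western-diet values exceeded those of all other libraries, and the other groups overlapped. The group means were 24.6 ± 8.56, 36.2 ± 7.70, 46.7 ± 23.4 and 94.3 ± 5.41 (SD, n = 3 each) in the same order. In knockouts Cx3cr1 was higher on the Western than on the control diet by 1.38 on the log2 scale (SE 0.37, limma adjusted p = 0.00936). On the Western diet it was higher in knockouts by 1.14 (SE 0.37, limma adjusted p = 0.0295). With wild-type Western-diet replicate 2 left out, that genotype difference was 0.67 and did not pass (limma, adjusted p = 0.104).

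Cxcr4, the receptor for Cxcl12, is carried by most leukocytes and their precursors. Cxcr4 levels, in normalized counts, were 9.73, 21.3 and 14.3 in the wild-type control-diet mice, 14.7, 46.0 and 26.7 in the knockout control-diet mice, 32.8, 27.5 and 21.8 in the wild-type Western-diet mice and 78.2, 53.6 and 61.8 in the knockout Western-diet mice. The knockout Western-diet values were the 3 highest, with knockout control-diet replicate 2 next, and the wild-type groups did not overlap each other. Relative to wild type, Cxcr4 was higher in knockouts on the Western diet by 1.21 on the log2 scale (SE 0.37, limma adjusted p = 0.0244). Relative to the control diet it was higher by 1.24 in knockouts (SE 0.37, limma adjusted p = 0.0164). The genotype difference on the control diet was 0.83, with overlapping libraries, and did not pass (limma, adjusted p = 0.280). Without wild-type Western-diet replicate 2 the genotype difference on the Western diet was 1.22 and missed the threshold (limma, adjusted p = 0.0593), and without both libraries that stood apart it passed again (limma, adjusted p = 0.0261).

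Ccr7 guides dendritic cells and naive T cells towards lymph nodes along Ccl19 and Ccl21. Its normalized counts were 20.4, 13.4 and 16.4 in the wild-type control-diet mice, 21.0, 12.8 and 21.7 in the knockout control-diet mice, 20.9, 19.4 and 27.2 in the wild-type Western-diet mice and 35.2, 33.3 and 27.8 in the knockout Western-diet mice. In knockouts the Western-diet values lay above the control-diet values without overlap, by 0.79 on the log2 scale (SE 0.24, limma adjusted p = 0.0168). Without knockout control-diet replicate 2 it was 0.56 and did not pass (limma, adjusted p = 0.0646). The genotype difference on the Western diet was 0.50 and did not pass (limma, adjusted p = 0.116), even though the lowest knockout value was above the highest wild-type value.

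Among the ligands, Cxcl1 recruits neutrophils through Cxcr2, a receptor that lay under the level minimum here. Normalized counts of Cxcl1 were 218, 159 and 213 in the wild-type control-diet mice, 231, 229 and 219 in the knockout control-diet mice, 243, 162 and 196 in the wild-type Western-diet mice and 362, 254 and 310.5 in the knockout Western-diet mice. On the Western diet the lowest knockout value was above the highest wild-type value. Means were 200.2 ± 40.3 and 309 ± 53.8 (SD, n = 3 each), a difference of 0.63 on the log2 scale (SE 0.17, limma adjusted p = 0.0166). Without wild-type Western-diet replicate 2 the difference was 0.49 and did not pass (limma, adjusted p = 0.0633). Between diets Cxcl1 was 0.43 higher in knockouts, which did not pass (limma, adjusted p = 0.0598) but did without wild-type Western-diet replicate 2 (limma, adjusted p = 0.0368), and 0.021 higher in wild-type mice. The neutrophil markers on the panel, 5 of 10 listed, summed to 238 to 406 normalized counts in the wild-type and 812 to 860.2 in the knockout Western-diet mice. Of the 5, 2 passed as higher in these knockouts, against 32.2% of all tested genes. On the control diet the sums were 182 to 229 in wild-type and 311 to 969 in knockout mice. There too 2 of the 5 passed as higher, against 1.99% of all tested genes. Cxcl1 lay between 159 and 218 in wild-type and between 219 and 231 in knockout control-diet mice. That difference of 0.22 on the log2 scale did not pass (limma, adjusted p = 0.586). The part of those cells in the Cxcl1 difference was not tested.

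Promoters are shown for the 4 genes that passed between genotypes on the Western diet, from RefSeq (GRCm38.p6). They are reference sequence, not read in these mice, and their part in the genotype differences was not tested. RefSeq promoters matched 26 of the 36 genes and 15 of the 22 tested. Each line gives the 250 bases before the annotated start, 5′ to 3′ on the gene's strand. Capitals mark matches to the kappaB consensus, the binding motif of the inflammatory transcription factor NF-kappaB, or to TATAAA, the TATA box, on either strand.
Cxcl1 (chr5:90890995-90891244, + strand): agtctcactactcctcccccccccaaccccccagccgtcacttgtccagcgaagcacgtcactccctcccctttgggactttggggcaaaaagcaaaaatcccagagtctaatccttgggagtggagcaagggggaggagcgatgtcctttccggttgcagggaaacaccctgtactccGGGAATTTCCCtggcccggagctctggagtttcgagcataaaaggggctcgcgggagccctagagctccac
Cxcr4 (chr1:128592300-128592549, - strand): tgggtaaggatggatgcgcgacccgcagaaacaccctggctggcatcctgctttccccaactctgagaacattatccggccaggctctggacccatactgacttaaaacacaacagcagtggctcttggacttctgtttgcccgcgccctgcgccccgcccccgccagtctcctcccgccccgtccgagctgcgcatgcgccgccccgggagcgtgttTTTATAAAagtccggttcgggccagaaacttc
Cx3cr1 (chr9:120068297-120068546, - strand): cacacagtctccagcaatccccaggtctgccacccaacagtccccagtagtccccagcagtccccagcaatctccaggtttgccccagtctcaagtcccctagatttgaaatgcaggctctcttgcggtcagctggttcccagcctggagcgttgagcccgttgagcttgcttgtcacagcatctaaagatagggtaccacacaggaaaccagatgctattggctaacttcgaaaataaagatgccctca
Cxcl12 (chr6:117168285-117168534, + strand): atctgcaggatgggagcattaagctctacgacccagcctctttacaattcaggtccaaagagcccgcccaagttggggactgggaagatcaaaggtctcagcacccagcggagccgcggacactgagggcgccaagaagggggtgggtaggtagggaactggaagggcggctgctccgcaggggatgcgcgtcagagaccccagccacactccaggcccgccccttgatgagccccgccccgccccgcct
The Cxcl1 promoter held 2 overlapping kappaB matches, on opposite strands, between 71 and 61 bases before the start. That motif occurs in 7.25% of all 32851 promoters of the table at this length. Cxcr4 held overlapping TATAAA matches on both strands between 32 and 25 bases before the start, a motif found in 12.4% of all promoters. Neither motif was found in the windows of Cx3cr1 and Cxcl12. The Cxcl12 window was 64.4% G and C with 14 CpG dinucleotides and the Cxcr4 window 61.2% with 19, against medians of 52.4% and 6 over all promoters. Motif matches describe the letters of these windows alone. The kappaB motif was found for 6 of the 26 genes matched, the others being Cxcl3, Ccl20, Ccrl2, Ccr6 and Ccr3. Of these 5, Ccl20 and Ccrl2 were tested, and neither passed in any comparison. Ccr6 and Ccrl2 had several promoter windows, and not all of them held the motif. This count is by gene, so it cannot be set against the share by promoter given above.

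Ligands of the monocyte receptor Ccr2 include Ccl7 and Ccl12, the latter a mouse gene. Normalized counts of Ccl7 were 11.7, 13.4 and 18.4 in the wild-type control-diet mice, 13.7, 15.3 and 19.8 in the knockout control-diet mice, 41.7, 15.3 and 28.3 in the wild-type Western-diet mice and 55.8, 37.9 and 50.2 in the knockout Western-diet mice. Within the knockouts the diets did not overlap, and Ccl7 rose by 1.50 on the log2 scale (SE 0.32, limma adjusted p = 0.00252). The wild-type Western-diet group was split, with replicate 2 at the control level and replicates 1 and 3 above it. The diet difference in wild-type mice, 0.84, did not pass with all libraries (limma, adjusted p = 0.131) and was 1.21 without replicate 2 (limma, adjusted p = 0.00788). The genotype difference on the Western diet, 0.82, did not pass (limma, adjusted p = 0.0623). The levels of Ccl12 were 27.3, 29.1 and 40.9 in the wild-type control-diet mice, 18.9, 35.7 and 31.6 in the knockout control-diet mice, 34.8, 21.4 and 33.8 in the wild-type Western-diet mice and 41.2, 47.1 and 49.4 in the knockout Western-diet mice. Ccl12 was 0.70 higher on the Western diet in knockouts (SE 0.27, limma adjusted p = 0.0484), close to the threshold, and -0.12 in wild-type mice, which did not pass (limma, adjusted p = 0.806).

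Ccl3 is a macrophage product that attracts monocytes and T cells. Normalized Ccl3 counts were 47.7, 26.9 and 46.0 in the wild-type control-diet mice, 34.7, 30.6 and 43.5 in the knockout control-diet mice, 45.7, 41.8 and 47.9 in the wild-type Western-diet mice and 66.2, 72.1 and 54.8 in the knockout Western-diet mice. All 3 knockout Western-diet values lay above every other library. The diet difference in knockouts was 0.82 on the log2 scale (SE 0.23, limma adjusted p = 0.0120). The genotype difference on the Western diet, 0.50, did not pass (limma, adjusted p = 0.109).

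Ccl22, which is made by dendritic cells and macrophages and attracts T cells through Ccr4, had normalized counts of 20.4, 16.8 and 12.3 in wild-type control-diet, 15.8, 7.66 and 18.8 in knockout control-diet, 26.8, 12.2 and 30.5 in wild-type Western-diet and 34.4, 38.8 and 31.7 in knockout Western-diet mice. The knockout groups did not overlap. In knockouts it was higher on the Western diet by 1.33 on the log2 scale (SE 0.36, limma adjusted p = 0.0104), and in wild-type mice the diet difference of 0.40 did not pass (limma, adjusted p = 0.549). Without both libraries that stood apart the wild-type difference was 0.79 and passed (limma, adjusted p = 0.0279). Its receptor gene Ccr4 lay under the level minimum. Ccl19 is the ligand with which lymph node stroma attracts Ccr7-bearing cells, and its levels in normalized counts were 35.0, 39.2 and 27.6 in the wild-type control-diet mice, 23.1, 30.6 and 28.6 in the knockout control-diet mice, 30.8, 22.4 and 32.7 in the wild-type Western-diet mice and 43.8, 37.9 and 43.2 in the knockout Western-diet mice. The knockout Western-diet values lay above those of both knockout control-diet and wild-type Western-diet mice. In knockouts it was higher on the Western diet by 0.59 (SE 0.20, limma adjusted p = 0.0293), and in wild-type mice it was -0.24 (limma, adjusted p = 0.510). Among the 22 tested genes, Ccl19 had the smallest adjusted p of the interaction of genotype and diet, 0.83 on the log2 scale, which did not pass (limma, adjusted p = 0.0818).

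Cxcl12 is a constitutive ligand of stromal and endothelial cells that retains Cxcr4-bearing cells in tissue. Its normalized counts were 6955, 7534 and 7225 in the wild-type control-diet mice, 6130.4, 6928 and 6163 in the knockout control-diet mice, 4972, 5463 and 5086 in the wild-type Western-diet mice and 4415, 4445 and 4485 in the knockout Western-diet mice. On each diet the knockout values lay below the wild-type values, and within each genotype the Western-diet values lay below the control-diet values. Wild-type means were 7238 ± 290.0 on the control and 5174 ± 257 on the Western diet, and the knockout mean on the Western diet was 4449 ± 35.3 (SD, n = 3 each). From the control to the Western diet the log2 difference of Cxcl12 was -0.48 in wild-type mice (SE 0.076, limma adjusted p = 0.00536) and -0.52 in knockouts (SE 0.076, limma adjusted p = 0.000329). The difference between these effects was -0.039 with a 95% confidence interval of -0.27 to 0.19. Between genotypes it was -0.22 on the Western diet (SE 0.076, limma adjusted p = 0.0430), and -0.18 on the control diet, which did not pass (limma, adjusted p = 0.264). Without replicate 2 of the wild-type Western-diet group, the genotype difference on that diet was -0.18 and was not called (limma, adjusted p = 0.173). Cxcl12 and its receptor Cxcr4 passed in opposite directions between genotypes on the Western diet and between diets in knockouts.

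Ccl25 attracts Ccr9-bearing T cells to the small intestine, and its normalized counts were 115, 105 and 113 in the wild-type control-diet mice, 156, 129 and 155 in the knockout control-diet mice, 112, 98.9 and 89.3 in the wild-type Western-diet mice and 106, 108 and 104 in the knockout Western-diet mice. All 3 knockout control-diet values lay above every other library. In knockouts Ccl25 fell by 0.46 on the log2 scale from the control to the Western diet (SE 0.13, limma adjusted p = 0.0112), and its genotype difference on the control diet, 0.40, had the smallest adjusted p of the 22 tested genes in that comparison but did not pass (limma, adjusted p = 0.124). Cxcl11 is known, with Cxcl9 and Cxcl10, as an interferon-induced ligand of Cxcr3. RefSeq lists the C57BL/6J gene as a transcribed pseudogene, and these data do not bear on a protein. Counts of Cxcl11 were 79.8, 64.9 and 70.6 in the wild-type control-diet mice, 69.4, 83.0 and 71.1 in the knockout control-diet mice, 66.6, 79.5 and 72.9 in the wild-type Western-diet mice and 48.1, 60.1 and 58.7 in the knockout Western-diet mice. The knockout Western-diet values were the 3 lowest, -0.42 from knockout control-diet mice (SE 0.15, limma adjusted p = 0.0414). With knockout control-diet replicate 2 left out this was -0.34 and did not pass (limma, adjusted p = 0.140). Its neighbours on chromosome 5 went the other way, with Cxcl9 at 1.29 and Cxcl10 at 1.73 log2 units above the control diet in knockouts, both passing the same test.

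Counted by comparison, 4 of the 22 tested genes passed between genotypes on the Western diet, 3 higher and 1 lower in knockouts, which is 18.2% against a background of 35.5% of all 453 tested genes. The 8 symbols left out by name include 7 that passed as higher here, and with them 11 of 30 genes passed, or 36.7%. By direction, 32.2% of all tested genes passed as higher and 3.31% as lower. The median log2 difference of the 22 genes was 0.34 and of all tested genes 0.26. The libraries of the 2 groups did not overlap for 9 genes higher and 2 lower, against 49.9% of all tested genes. Leaving out each of the 12 libraries in turn, Cxcl1 passed in 10 of 12 fits, Cx3cr1 in 8, Cxcr4 in 7 and Cxcl12 in 4. The fits that left out a control-diet library kept these differences unchanged and altered only their errors and adjusted p-values. Without knockout Western-diet replicate 1 none of the 22 genes passed, without replicate 2 or 3 of that group only Cxcl1, and without wild-type Western-diet replicate 2 only Ccr10, as lower. Between genotypes on the control diet none of the 22 passed with limma, against 2.87% of all tested genes, 1.99% as higher and 0.883% as lower. An unadjusted limma p under 0.05 was found for 5 of the 22, against 77 of all 453 tested genes. The median log2 difference of the 22 was 0.033, against 0.074 over all tested genes. Libraries did not overlap for 2 genes higher and 3 lower, against 23.8% of all tested genes.

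Between diets in wild-type mice 1 of the 22, Cxcl12, passed as lower, against 8.61% of all tested genes, 4.86% as higher and 3.75% as lower. Medians were 0.024 for these genes and 0.089 for all, and 1 higher and 2 lower genes did not overlap, against 28.0% of all tested genes. Without wild-type Western-diet replicate 2 the count was 3, as Ccl7 and Cx3cr1 passed as higher. Between diets in knockouts 11 of the 22 passed, 8 higher and 3 lower, or 50% against 45.3% of all tested genes. With the 8 symbols left out by name it was 18 of 30, or 60%. Of all tested genes 37.3% passed as higher and 7.95% as lower, and 57.6% did not overlap, against 12 higher and 3 lower of the 22. Medians were 0.42 for these genes and 0.27 for all. Ccl7, Cx3cr1, Ccl22, Ccl3, Ccl25 and Cxcl12 passed in all 12 fits that left out 1 library, Cxcr4 in 10, Ccr7 in 9, Ccl19 in 8, Cxcl11 in 4 and Ccl12 in 3, and 6 genes passed without knockout Western-diet replicate 1 and 7 without knockout control-diet replicate 1. Here the fits that left out a wild-type library kept the differences unchanged. No gene of the set passed in the interaction with limma, against 1.32% of all tested genes (1.1% as higher and 0.221% as lower). An unadjusted limma p under 0.05 was found for 2 of the 22, against 142 of all 453 tested genes. The larger number of calls in knockouts is thus not shown to be a difference between genotypes.

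**Figure D3:**
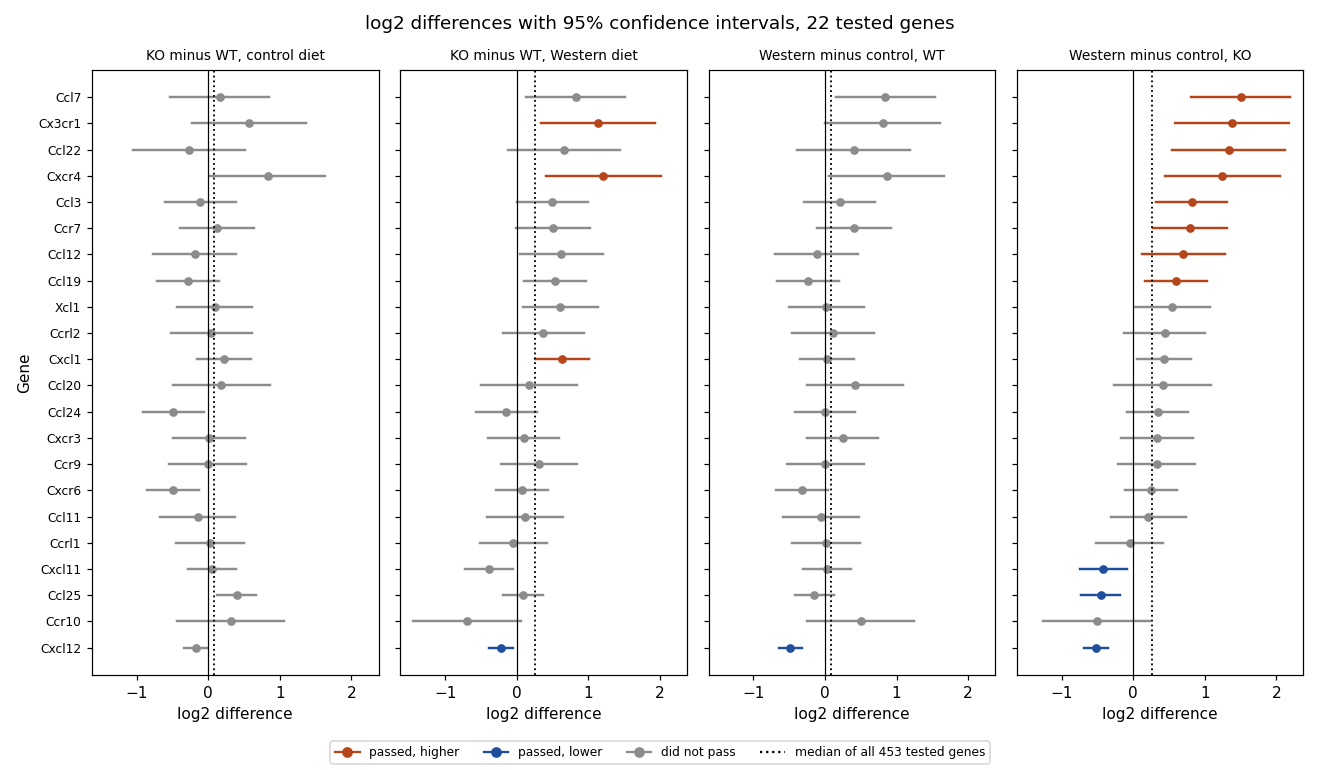
log2 difference of each of the 22 tested genes in the 4 pairwise comparisons, with 95% confidence intervals from limma. Coloured points passed an adjusted p of 0.05, the dotted line is the median of all 453 tested genes, and 11 genes passed in the panel of Western against control diet in knockouts.

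Split by role, 2 of 9 tested receptors and 1 of 13 tested ligands passed as higher in knockouts on the Western diet, where 32.2% of all tested genes did. There 1 ligand passed as lower, against 3.31% of all tested genes. Between diets in knockouts, 3 receptors and 5 ligands passed as higher and 3 ligands as lower. The shares of all tested genes in this comparison were 37.3% as higher and 7.95% as lower. Ccr7 and its ligand Ccl19 passed as higher together in that comparison. For Ccl25 the receptor Ccr9 did not pass, with a log2 difference of 0.33 (limma, adjusted p = 0.293), and for Cxcl11 the receptor Cxcr3 did not pass either, at 0.33 (limma, adjusted p = 0.258). Genes that lie next to each other in the RefSeq order, with no protein-coding gene between, were not uniform. Of Ccl7, Ccl11 and Ccl12, in a row on chromosome 11, Ccl7 and Ccl12 passed between diets in knockouts and Ccl11, an eosinophil attractant between them, did not, at 0.21 (limma, adjusted p = 0.505).

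The remaining 10 tested genes passed in no comparison. Ccr10, a receptor of skin-homing lymphocytes, had the largest absolute difference of them, -0.70 between genotypes on the Western diet (limma, adjusted p = 0.136), with normalized counts of 24.8, 17.3 and 50.1 in wild-type and 14.6, 18.5 and 17.8 in knockout mice, which overlapped. Xcl1, a ligand made by NK and T cells, was 0.61 higher in knockouts on the Western diet (limma, adjusted p = 0.0670), with 47.3, 64.7 and 44.8 normalized counts against 34.8, 26.5 and 40.3 in wild-type mice. Cxcr6, a receptor of liver T and NKT cells, and Ccl24, an eosinophil attractant, had their largest differences between genotypes on the control diet, at -0.50 and -0.49, and neither passed (limma, adjusted p = 0.130 and 0.233). The largest absolute differences of Ccl20, Ccrl2, Cxcr3, Ccr9, Ccl11 and Ccrl1 ran from 0.44 in Ccrl2 down to 0.054 in Ccrl1, a scavenging receptor now named Ackr4. No difference of these 6 genes passed, which does not show that their levels were equal.

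The 14 genes under the level minimum had means of 1.90 to 19.4 normalized counts and are given by level only. In descending order of mean they were Cx3cl1 at 19.4, Ccl26 at 16.7, Ccl4 at 15.9, Ccr6 at 15.7, Ccl8 at 15.0, Cxcl3 at 13.8, Ccr3 at 13.6, Cxcr5 at 13.4, Cxcr2 at 13.1, Xcr1 at 12.0, Cxcr1 at 11.2, Ccr4 (8.16 to 17.8 over the libraries), Cxcl15 at 10.3 and Ccr8 at 1.90. Cx3cl1, the ligand of Cx3cr1, was therefore not tested. A group mean reached 20 in 3 of these genes, Ccl4, Ccl8 and Cx3cl1, while 6 tested genes had a group mean under 20 (Ccl20, Ccl22, Ccl7, Ccr10, Ccr7 and Cxcr4), so genes on either side of the minimum had groups on both sides of it. With all 547 genes tested and no minimum, none of the 14 passed in any of the 5 comparisons with limma, and the smallest adjusted p was 0.0765.

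Monocyte and macrophage markers had their highest sums in the knockout Western-diet mice, as did the levels of Cx3cr1 and Cxcr4. The 12 markers on the panel of 18 listed summed to 3612 to 3902 normalized counts in wild-type control-diet, 4018 to 4728 in knockout control-diet, 3348 to 6305 in wild-type Western-diet and 7936 to 9152 in knockout Western-diet mice, with wild-type Western-diet replicate 2 at 3348. Between genotypes on the Western diet, 10 of the 12 markers passed as higher and 1 as lower, against 32.2% and 3.31% of all tested genes, and the lowest marker, Itgam, averaged 31.5 normalized counts, so none was at 0. Per 1000 normalized counts of that sum, Cx3cr1 was 4.69 to 8.73 in wild-type control-diet, 6.80 to 9.47 in knockout control-diet, 6.40 to 10.96 in wild-type Western-diet and 9.89 to 12.7 in knockout Western-diet mice, and the genotypes overlapped on the Western diet. Cxcr4 was 2.50 to 5.89, 3.66 to 9.72, 4.66 to 8.22 and 5.86 to 9.85 in the same order. In wild-type Western-diet replicate 2, whose marker sum was the lowest of the 12 libraries, Cxcr4 was 27.5, above replicate 3 of its group and every wild-type control-diet library. In these bulk samples more cells of a type and more RNA per cell cannot be told apart.

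**Figure D4:**
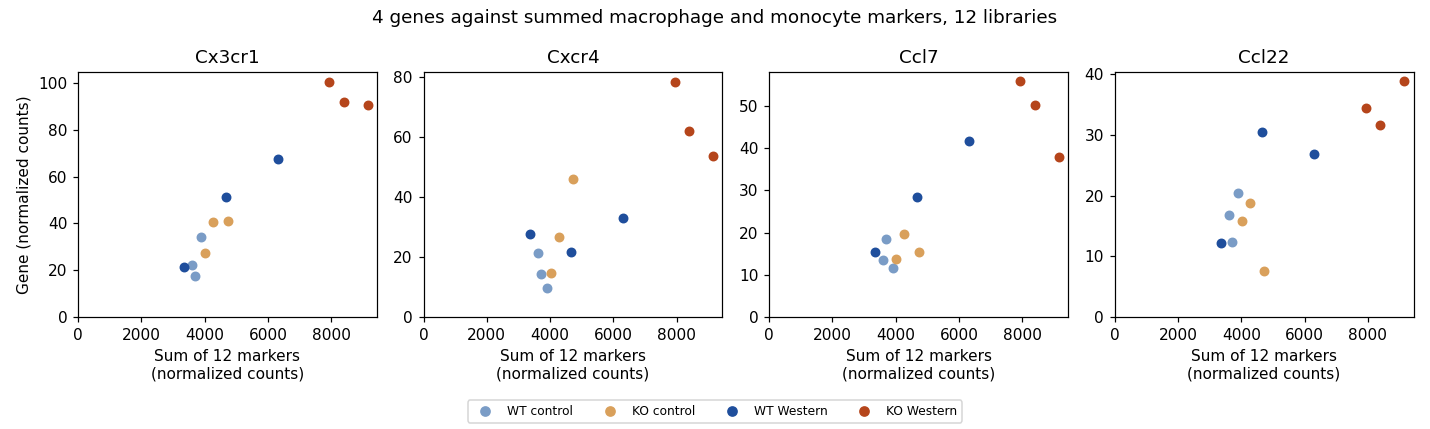
Normalized counts of Cx3cr1, Cxcr4, Ccl7 and Ccl22 in 12 libraries against the summed normalized counts of 12 macrophage and monocyte markers, with linear axes from 0. Points are libraries coloured by group. Wild-type Western-diet replicate 2, at a sum of 3348, has the lowest sum, and its level lies within the range of the control-diet libraries in all 4 plots.

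Other cell types also differed in their markers. Dendritic cell markers, 4 of 10 on the panel, summed to 215.2 to 402.5 normalized counts in wild-type and 481 to 562 in knockout Western-diet mice, and 3 of the 4 passed as higher between these groups, where 32.2% of all tested genes did. T cell markers, 11 of 14 on the panel and 10 tested, summed to 247 to 319 and 282 to 345, with 1 passing as higher, and B cell markers, 8 on the panel and 6 tested, to 208 to 261 and 303 to 337, with 2 passing. NK cell markers, 8 of 10 on the panel and 6 tested, summed to 198 to 262 and 314 to 364, with 1 passing as higher. For endothelial cells, a source of Cxcl12, the 3 markers on the panel of 7 listed summed to 770.0 to 847 and 988 to 1055, with 1 passing as higher, and Pdgfrb, the only stellate cell marker on the panel of 6 listed, passed as higher too. Hepatocyte markers, 10 of 16 on the panel, summed to 137800 to 143800 normalized counts in wild-type control-diet and 134600 to 280200 in knockout control-diet mice. In the Western-diet mice the sums were 101600 to 123500 in wild type and 99590 to 113700 in knockouts. The lowest of these markers, C8b, averaged 2131 normalized counts. Between genotypes on the Western diet 2 of the 10 passed as lower, against 3.31% of all tested genes. Between diets in knockouts 7 of the 10 passed as lower, against 7.95% of all tested genes, in the direction of Cxcl12, Ccl25 and Cxcl11. The part of these cells in the chemokine differences was not tested.

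Genes of related function were set beside the 36 from lists of symbols. The 8 chemokine genes that the symbol rule left out, all tested, passed as higher in 7 cases between genotypes on the Western diet and in 6 cases between diets in knockouts, where Cxcl13 passed as lower. Their median log2 differences were 1.07 and 1.49. The shares of all tested genes that passed as higher were 32.2% and 37.3%, and the counts that follow stand beside these. Ccr2 was among those that passed in both comparisons. Of 16 listed inducers of chemokine genes, 15 were on the panel and tested, and 7 passed as higher in each of these comparisons (46.7%), among them Nfkb2, a subunit of NF-kappaB, at 0.88 and 1.04. The cytokine Tnf, at 0.64 and 0.57, did not pass in either (limma, adjusted p = 0.152 and 0.183). Of 11 adhesion molecules that let leukocytes bind the vessel wall, 7 and 9 passed as higher (63.6% and 81.8%), with Vcam1 at 0.92 and 1.44 and Icam1 at 0.98 and 0.89. Atypical receptors take up chemokines without signalling. Of 6 symbols listed for them, older and newer names together, the panel held 1, Ccbp2, at 0.50 and 0.30, which did not pass. Ccrl1, now named Ackr4, stood on the panel under its older symbol and passed in neither comparison, at -0.046 and -0.054.

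Some directions depended on how libraries were scaled, and in these comparisons the median of all tested genes was itself above 0. Recentring each library on its own median moved the median log2 difference of all tested genes from 0.26 to -0.30 between genotypes on the Western diet and from 0.27 to -0.46 between diets in knockouts. Under this scaling no gene of the set passed as higher and 5 passed as lower (Ccl24, Ccl25, Ccr10, Cxcl11 and Cxcl12) between genotypes on the Western diet, and 1 passed as higher (Ccl7) and 5 as lower (Ccl25, Ccr10, Ccrl1, Cxcl11 and Cxcl12) between diets in knockouts. Recentring on the median ratio to the mean profile left none higher and 3 lower in the first comparison and 4 higher (Ccl22, Ccl7, Cx3cr1 and Cxcr4) and 3 lower in the second. After quantile normalization none was higher and 3 were lower in the first, and 3 were higher and 3 lower in the second. With voom on the recovered counts, scaled by each library's total, 2 were higher and none lower in the first, and 14 were higher and 0 lower in the second. Between diets in knockouts Ccl7, as higher, and Ccl25 and Cxcl11, as lower, passed as deposited and under these 3 rescalings, but not Ccl25 and Cxcl11 with voom, at -0.17 and -0.14. Cxcl12 was lower in that comparison under all of these, although after quantile normalization it did not pass, at -0.29 (limma, adjusted p = 0.0549), nor with voom, at -0.24 (limma, adjusted p = 0.0694). Between genotypes on the Western diet, Cx3cr1 was 1.14 as deposited. It was 0.89 after median-ratio recentring, 0.66 after quantile normalization and 0.58 after sample-median recentring. In the same order Cxcr4 was 1.21, 0.96, 0.73 and 0.65, and Cxcl1 was 0.63, 0.37, 0.17 and 0.064. Of these scalings, each of these genes passed as deposited only. With voom Cx3cr1 and Cxcr4 passed, at 1.08 and 1.15 (limma, adjusted p = 0.0217 and 0.0122). Cxcl1 did not pass with voom, at 0.56 (limma, adjusted p = 0.0525). Cxcl12 passed as lower as deposited and after both recentrings, but not after quantile normalization or with voom. Which scaling fits these samples was not tested.

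**Figure D5:**
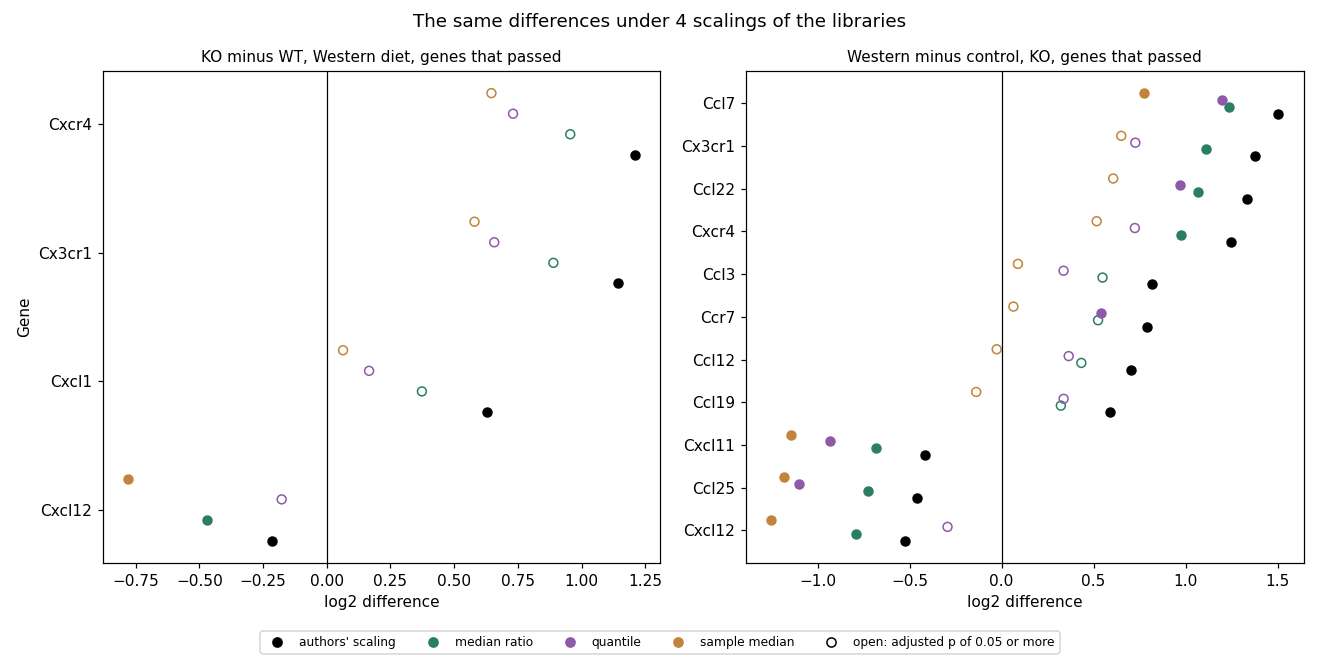
log2 differences, under 4 scalings of the libraries, of the genes that passed in the genotype comparison on the Western diet and in the diet comparison in knockouts. Filled points passed an adjusted p of 0.05 with limma and open points did not. Ccl7, Ccl25 and Cxcl11 passed under all 4 scalings in the diet comparison.

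Labelled age differed between the groups, with knockout control-diet mice the oldest. With labelled age as a covariate, 2 of the 11 genes between diets in knockouts still passed, Ccl7 at 1.58 and Cxcl12 at -0.52 on the log2 scale (limma, adjusted p = 0.0426 and 0.0173). The log2 difference of Cx3cr1 was 1.30 with age and did not pass (limma, adjusted p = 0.120). Between genotypes on the Western diet Cx3cr1, Cxcr4 and Cxcl1 passed with age in the model, and Cxcl12 did not, at -0.22 (limma, adjusted p = 0.0669).

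The authors' deposited table holds 1 comparison, headed knockout against wild type, without stating a test. Of the 36 genes, 32 are given a log2 fold change of 0 in the authors' deposited table, and 2 of the other 4 have an adjusted p under 0.05. The authors' deposited table lists Cxcl1 at 0.69 (adjusted p = 0.0180) and Cxcl11 at -0.66 (adjusted p = 0.0344). For Cxcl12 and Ccl25 the authors' deposited table lists -0.22 and 0.10, with adjusted p of 0.0511 and 0.701. Cx3cr1 and Cxcr4, which passed with limma, are listed at 0 in the authors' deposited table. Of the 12 genes that passed with limma in any comparison, diet comparisons included, only Cxcl12, Cxcl1, Ccl25 and Cxcl11 have another value there. Of these, Ccl25 and Cxcl11 passed with limma between diets in knockouts only. The 32 genes listed at 0 averaged 56.2 normalized counts or less, and the other 4 averaged 68.7 or more. Why genes are listed at 0 is not stated, so a 0 there cannot be read as an absence of change.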

How the data were processed

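Expression of 547 mouse genes was measured in 12 mice with barcoded NanoString probes, per the labels' protocols. The authors deposited log2 values of normalized counts, per the file headers. Back on the linear scale, 100% of them were whole multiples of a library's own factor (tolerance 0.001), giving totals of 440842 to 643638 counts, which limit the precision of low genes. How they were normalized, and the test behind the p-values in the authors' deposited table, are not given in the sources used here.

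Groups came from the sample description labels. The values stand in a workbook and in a series-wide table whose 12 columns each hold another library's values. The workbook, whose header lines give animal, diet and genotype, was used, and every group difference rests on that choice.

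Linear values plus a pseudocount of 1 were taken to log2, which understates changes of low genes. The 453 genes averaging 20 or more normalized counts were fitted with limma 3.58.1 (R 4.3.3, lmFit and eBayes with trend, all 12 libraries, a mean per group). Two-sided p-values were adjusted by Benjamini-Hochberg over the 453 genes within each comparison, at 0.05. Single genes had no exact permutation test, which for 3 mice against 3 gives no p below 0.1. Of the 37 genes matched by symbol, 1 is not reported here; it stayed in the fit. Full values are given for genes that passed in at least 1 comparison. The fit was tested on simulated data. Alternatives changed the pseudocount, filter, scaling, test, libraries, age term and source of values. The members and lists were chosen with earlier results of these data known.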

Additional observations from a re-analysis of the deposited data

How the results depend on the processing

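The counts below are of the 22 tested genes that passed. Between genotypes on the Western diet 4 passed, and 2 did with voom on recovered counts or without both libraries that stood apart. Without both libraries these were Cxcr4 as higher and Ccr10 as lower, so Cx3cr1, Cxcl1 and Cxcl12 were lost and Ccr10 was gained. Leaving out each library in turn gave 0 to 6. The count was 0 without knockout Western-diet replicate 1, 1 without replicate 2 or 3 of that group, 1 without wild-type Western-diet replicate 2 and 2 without replicate 3. Between genotypes on the control diet 0 passed, 2 with voom (Cxcl12 and Cxcr6, both lower), and 0 to 1 leaving out each library, the 1 being Cxcr4 without knockout control-diet replicate 1. Between diets in wild-type mice 1 passed, 0 after quantile normalization, 4 without both libraries that stood apart and 1 to 3 leaving out each library, with 3 reached without wild-type Western-diet replicate 2. Without both libraries Ccl22, Ccl7 and Cx3cr1 were gained as higher beside Cxcl12. Between diets in knockouts 11 passed, 7 after median-ratio recentring, 6 after quantile normalization or sample-median recentring, 2 with age as a covariate, and 6 to 12 leaving out each library, with 6 without knockout Western-diet replicate 1 and 7 without knockout control-diet replicate 1. Without both libraries that stood apart 9 passed, as Ccr7 and Cxcl11 were lost. For the interaction 0 passed, 3 after sample-median recentring (all lower) and 2 with voom (Ccl12 and Ccl19). With the columns of the series-wide table taken as labelled, 0 passed in all 5 comparisons.

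Some single genes changed sign. Between diets in knockouts, sample-median recentring gave Ccl12 -0.027 and Ccl19 -0.14 on the log2 scale. Between genotypes on the Western diet, Ccl25 was -0.44 after quantile normalization and -0.48 after sample-median recentring, both passing. From the series-wide table, the diet difference in knockouts was -0.069 for Ccl22, 0.20 for Ccl25, -0.053 for Ccr7 and 0.049 for Cxcl12, and in wild-type mice 0.32 for Cxcl12; the columns of that table belong to other libraries. Apart from the construction of these alternatives, the cause was not tested.

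Of the 16 pairs of gene and comparison that passed, 16 still passed in the same direction without a pseudocount or with a pseudocount of 20, 14 without the level minimum, 9 after median-ratio recentring, 5 after quantile normalization, 6 after sample-median recentring, 11 with voom, 6 with age as a covariate and 7 to 15 leaving out 1 library, the 7 being without knockout Western-diet replicate 1. In the diet comparison in knockouts, Ccl7, Cx3cr1, Ccl22, Ccl3, Ccl25 and Cxcl12 passed whichever of the 12 libraries was left out, as did Cxcl12 between diets in wild-type mice. Libraries of the groups not compared enter the estimate of spread only, not the difference. Each library came from a different mouse and the labels pair no mice, so no paired analysis was made. Low counts kept 14 of the 36 genes out of the test.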
